A study of Catostomus macrocheilus with 21 samples.

Results

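LSS_UF_11822 is a probe on a 1-colour Agilent array for the largescale sucker, and its signal in liver ranged 3483-fold among wild fish. The probes described here are LSS_UF_11822 and the 100 probes whose signal rose most closely with it, 101 of the 11040 probes that 6 or more of the 21 arrays detected well above background, out of 14758 on the array. They were chosen on the authors' deposited log2 values: the mean of each collection site was subtracted from every probe, and the 100 probes with the highest Pearson r with LSS_UF_11822 over the 21 fish were taken. How closely the members follow LSS_UF_11822 within a site is therefore the rule itself and is given as a description, without a test. Site means were removed before the choice, so differences between the sites were not used by it and could be tested. LSS_UF_11822 itself was picked with all fish in view, so the site differences of its followers are not independent of that pick.

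Liver was taken from 21 wild Catostomus macrocheilus, a bottom-feeding fish, labelled as reproductive adults. They were caught at 3 sites of the Columbia River: Columbia City gave 6 fish, Longview 7 and Skamania 8. The study's title concerns contaminant accumulation. Each fish had 1 array, and the groups are sites of capture, not treatments. The part of sex, age, size or contaminant load, which the labels do not give per fish, was not tested.

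The liver of a bony fish makes most plasma proteins, stores and exports lipid, and transforms foreign compounds. In egg-laying species the liver of maturing females also makes the precursors of egg yolk under estrogen. The files used here pair a probe with the name of an assembled sequence and not with a gene. No gene name or role is therefore given to a probe, no probe sequence is shown, and the tissue could not be checked against liver markers.

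Levels below are log2 processed signals minus the 75th percentile of the array, and a level of 0 therefore equals that percentile. The arrays had between 8179 and 11806 probes well above background. The log2 signals of 2 arrays correlated by 0.882 to 0.969, so no array duplicated another.

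LSS_UF_11822 was well above background on all 21 arrays, and its level spanned 11.77 log2 units, or 3483-fold, from -2.90 in Longview replicate 2 to 8.87 in Columbia City replicate 3. In liver tissue, a change in the share of cells that hold a transcript and a change in its amount per cell cannot be told apart. At Columbia City the lowest level was -2.06, the median 7.67 and the highest 8.87. There replicates 1 and 6 stood at -2.06 and -1.39, whereas the other 4 fish lay at 7.29 or above. At Longview the lowest level was -2.90, the median 3.04 and the highest 8.19. The Longview fish were spread over the whole range, with replicates 1, 3, 4, 5 and 7 between 0.92 and 5.38. At Skamania the lowest level was -2.31, the median -0.76 and the highest 7.11. Only replicates 3 and 6 lay above 0.42 there, at 2.83 and 7.11, and the other 6 fish at or below it. The within-site SD of 3.93 was the 14th highest of the 11040 probes, whose median was 0.62. High and low fish thus occurred at all 3 sites, and the ranges of the sites overlapped.

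The other 100 members moved together in the same fish. Their mean level ran from -0.63 in Longview replicate 2 to 2.00 in Columbia City replicate 3, a range of 2.63 log2 units, which is narrower than that of LSS_UF_11822. At Columbia City the lowest mean was -0.27, the median 1.48 and the highest 2.00, with replicates 1 and 6 at -0.27 and -0.15 and the other 4 fish at 1.42 or above. At Longview the lowest was -0.63, the median 0.81 and the highest 1.97, and replicates 1, 3, 4, 5 and 7 lay between 0.54 and 1.07. At Skamania the lowest was -0.35, the median 0.30 and the highest 1.81, in replicate 6, and the next was 0.78 in replicate 3. All 100 were above their site mean in Skamania replicate 6, 99 were in Longview replicate 6, and 98 were in Columbia City replicate 3. Between these, 50 were in Longview replicate 5, 49 in Longview replicate 3 and 59 in Skamania replicate 8. None was above its site mean in Columbia City replicates 1 and 6 or in Longview replicate 2. The highest fish of a member was Columbia City replicate 3 for 33 of the 100, Longview replicate 6 for 30 and Skamania replicate 6 for 18. The lowest was Longview replicate 2 for 37, Skamania replicate 5 for 17 and Skamania replicate 1 for 14. Skamania replicate 4 departed from this order. Its LSS_UF_11822 level was low, at -1.96, yet 66 of the 100 members were above their site mean in that fish.

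After subtraction of site means, the r of the 100 members with LSS_UF_11822 ran from 0.926 to 0.772, with a median of 0.798, where the median over all probes that passed the filter on background was 0.0357. The r was above 0 in each of the 3 sites for all 100, and above 0.5 in each for 92. Within Columbia City the median r of the 100 was 0.920, within Longview 0.810 and within Skamania 0.745. These values describe the choice and support nothing. The first component of the 100 held 75.2% of their within-site variance and the second 4.85%. The values were not scaled to equal spread for this, so the members with the widest spread weigh most in these shares. Pairs of members correlated by a median of 0.731, from 0.369 to 0.990.

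LSS_UF_22505 had the highest r, at 0.926, but a small slope of 0.15 log2 units per log2 unit of LSS_UF_11822. Its level was between 2.16 and 3.64 at Columbia City, 1.75 and 3.42 at Longview, and 2.02 and 3.69 at Skamania. It was lowest in Longview replicate 2 and highest in Skamania replicate 6, a range of 1.94 log2 units, and the ranges of the 3 sites overlapped. LSS_UF_24608 came second with an r of 0.919 and moved much further, with a slope of 0.68. Its highest level was 4.53, in Skamania replicate 6. It was well above background on 20 of 21 arrays, with the exception of Columbia City replicate 1, whose measured level of -6.13 is only a bound, and its lowest detected level was -3.23. LSS_UF_22504 followed with an r of 0.908 and a slope of 0.15. LSS_UF_21518 had an r of 0.904 and the steepest slope of the 100, 0.71. Its levels were 4.07, 3.10 and 3.21 in Columbia City replicates 3, 4 and 5, 1.94 in Longview replicate 6 and 1.64 in Skamania replicate 6. In every other fish it lay at -0.45 or below, and 15 of its 21 arrays were well above background, so its slope rests partly on values that are only bounds. LSS_UF_23217, with an r of 0.877, was at 0.40 and 0.03 in Columbia City replicates 3 and 4, at -0.49 in Longview replicate 6, and between -3.61 and -1.01 in the other 18 fish. LSS_UF_15806 had an r of 0.859 and stayed between 1.93 and 3.39.

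The next members by r were LSS_UF_10069, LSS_UF_19131, LSS_UF_13635, LSS_UF_16702, LSS_UF_10667, LSS_UF_14662 and LSS_UF_10899, with r from 0.854 to 0.844. They were followed by LSS_UF_22514, LSS_UF_21269, LSS_UF_12297, LSS_UF_14677, LSS_UF_12634, LSS_UF_16179 and LSS_UF_14451, with r from 0.839 to 0.828. LSS_UF_10069 had a slope of 0.27. Its level was 9.76, 9.62 and 9.47 in Columbia City replicates 3, 4 and 5 and 9.69 in Longview replicate 6. It fell to 5.16 in Longview replicate 2 and to 5.53 in Skamania replicate 2, so it was above the 75th percentile in every fish. LSS_UF_10667 had a slope of 0.39, and 18 of its 21 arrays were well above background.

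The members moved by less than LSS_UF_11822, but more than a typical probe. The range of a member over the 21 fish had a median of 2.87 log2 units. The slope of the 100 on LSS_UF_11822 had a median of 0.17 and ran from 0.06 to 0.71, and 61 had a slope below 0.2. The within-site SD of the 100 had a median of 0.82, from 0.30 to 2.92, where all probes had a median of 0.62. Besides LSS_UF_24608 and LSS_UF_21518, the widest were LSS_UF_21081, LSS_UF_21082 and LSS_UF_13900, with SDs of 2.15, 2.11 and 1.85. LSS_UF_21081 lay between -3.49 and -2.07 in Columbia City replicates 1 and 6, Longview replicate 2 and Skamania replicates 1, 5 and 7, and between -1.23 and 2.66 in every other fish. LSS_UF_13900 had medians of 3.10 at Columbia City, 2.54 at Longview and 0.62 at Skamania, with ranges from -0.79 to 4.33, from -0.60 to 4.21 and from -1.80 to 3.26, so the sites overlapped. The narrowest were LSS_UF_10632, LSS_UF_13762 and LSS_UF_15806, with SDs of 0.30, 0.31 and 0.33. LSS_UF_10632 stayed between 2.57 and 3.67 over all 21 fish.

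The place of the 100th member was not marked by a gap. The last members inside, LSS_UF_24526, LSS_UF_18524 and LSS_UF_11342, had r of 0.773, 0.772 and 0.772. The first probes outside, LSS_UF_20373, LSS_UF_21583 and LSS_UF_20934, had r of 0.772, 0.771 and 0.771. On the processed signals scaled to the 75th percentile, 71 of the 100 were chosen again. With 1 fish left out in turn, between 59 and 95 were. Without Columbia City replicate 1 it was 59, and without Longview replicate 5 it was 64.

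The rule chose members in all 21 fish, so the choice was repeated with 1 site held back. The 100 probes closest to LSS_UF_11822 in the fish of the other 2 sites were taken, and their r was measured in the site that had no part in it. In the 6 Columbia City fish the median r of these 100 was 0.658, and 90 were above 0, against a median of 0.0329 and a share of 51.6% above 0 over all probes that passed the filter. In the 7 Longview fish the median was 0.544 with 93 above 0, against 0.0354 and 52.5%. In the 8 Skamania fish it was 0.606 with 92 above 0, against 0.0579 and 53.4%. An r above 0.5 was reached by 68, 57 and 69 of the 100, where 26.9%, 18.6% and 21.9% of all probes reached it. In each site held back, the median r of the chosen probes was thus above that of all probes. The chosen probes share the same arrays and follow each other, so they are not independent points, and LSS_UF_11822 itself was picked with all fish in view. Of each 100, only 30, 42 and 55 were among the members chosen on all fish. The values therefore describe these choices and are no test of the members. Sets chosen around other probes of wide spread were not compared, so whether they give similar medians was not tested.

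LSS_UF_10838 ran the other way in most fish. Its highest level was 8.37, in Columbia City replicate 6, and it was well above background on 20 of 21 arrays. In Columbia City replicate 4 it was not, and the measured -5.37 there is only a bound. The lowest detected level was -3.66, in Skamania replicate 6. At Columbia City its median was -2.87, at Longview 4.22 and at Skamania 7.87. Columbia City replicates 1 and 6 stood at 7.39 and 8.37, where LSS_UF_11822 was low, and the other 4 fish at -2.38 or below, where LSS_UF_11822 was high. At Skamania, 5 fish lay between 7.83 and 8.35 and replicates 3, 4 and 6 at -3.26, -1.32 and -3.66. At Longview it ran from 0.16 in replicate 6, the fish with the highest LSS_UF_11822 there, to 7.56 in replicate 2, the fish with the lowest. The other Longview fish, replicates 1, 3, 4, 5 and 7, were at 4.57, 4.22, 6.54, 0.80 and 4.11.

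With site means removed, the r between LSS_UF_11822 and LSS_UF_10838 was -0.773 (n = 21) and Spearman's rho was -0.749. Without the 2 fish farthest from the median of LSS_UF_10838 the r was -0.682. Within a site it was -0.986 at Columbia City (n = 6), -0.572 at Longview (n = 7) and -0.692 at Skamania (n = 8). Within slides it was -0.877 on slide 2 and -0.969 on slide 3, but -0.003 among the 6 fish of slide 1, which include Skamania replicate 4 and Longview replicate 5. Several fish were exceptions to the opposition. In Skamania replicate 4 both probes were low, at -1.96 for LSS_UF_11822 and -1.32 for LSS_UF_10838, and without that fish the pooled r was -0.854. In Longview replicate 5 both lay near 0, at 0.92 and 0.80. Both were well above 0 in Longview replicates 1, 3, 4 and 7, where LSS_UF_11822 was at 3.78, 2.50, 3.04 and 5.38 and LSS_UF_10838 at 4.57, 4.22, 6.54 and 4.11. The pair was named for this opposition, so these values are a description.

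The r of the 100 members with LSS_UF_10838 had a median of -0.745 and ran from -0.896 to -0.451. Its sign was fixed by the choice, since the members follow LSS_UF_11822 closely and LSS_UF_11822 is itself opposed to LSS_UF_10838. For 29 of the 100 the opposition to LSS_UF_10838 was tighter than the relation to LSS_UF_11822 that chose them. In the mean of the 100 the r was -0.866 with LSS_UF_10838 and 0.944 with LSS_UF_11822. On slide 1 these were -0.687 and 0.621. With LSS_UF_10838 removed by linear regression, the r of the 100 with LSS_UF_11822 fell to a median of 0.541, from 0.334 to 0.840. A value above 0 was fixed for each member whose r with LSS_UF_11822 was larger in size than that of LSS_UF_10838. Only the last few members by r, such as LSS_UF_11342, fell just short of this.

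LSS_UF_10838 was not the probe most opposed to LSS_UF_11822, since 147 others had a lower r. The 5 lowest were LSS_UF_17747, LSS_UF_14588, LSS_UF_11765, LSS_UF_10996 and LSS_UF_10195, with r of -0.920, -0.917, -0.911, -0.910 and -0.902. LSS_UF_17747 covered a narrow range from -1.20 in Skamania replicate 6 to 0.53 in Longview replicate 2. LSS_UF_10195 was highest in Longview replicate 2 too, at -0.55, and was well above background on 13 of 21 arrays, not in Skamania replicate 6. At or below the negative of the last member's r lay 155 probes, against 100 at or above it.

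The first comparison asked whether the members differed between sites, a difference that the choice by r did not use. The members follow LSS_UF_11822, which was picked with all fish in view, and each other. Counts of members by the sign of a site difference are therefore not counts of independent points, for any pair of sites. By limma over all 11040 probes, 1 of 101 members was called between Longview and Skamania at a Benjamini-Hochberg adjusted p under 0.05, where 2.84% of all probes were. It was called higher at Longview, as were 2.72% of all probes, and 0 members were called lower, against 0.118%. The members' share is below the background, and 8 members had an unadjusted p under 0.05, or 7.92%, against 13.8%. The median standard error of the members was 0.405, against 0.315 over all probes, and a larger error makes a call less likely. These shares are therefore not set against probes of like spread. The median log2 difference of the members, Longview minus Skamania, was 0.37, from -0.86 to 2.70, beside 0.11 over all probes. It was above 0 for 81 members, or 80.2%, against 61.7% of all probes. The ranges of Longview and Skamania did not overlap for 0 members, against 1.83% of all probes.

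The member called was LSS_UF_14123, ranked 38th, with an r of 0.804 and a slope of 0.27. At Longview its lowest level was 0.65, its median 2.13 and its highest 3.36, and at Skamania these were -2.23, -0.15 and 0.72. All Longview fish except replicate 2, at 0.65, thus lay above every Skamania fish. Longview averaged 1.96 ± 1.07 (SD, n = 7) against -0.41 ± 1.02 (SD, n = 8) in the Skamania fish, higher by 2.37 log2 units (SE 0.62, limma adjusted p = 0.0367). Columbia City averaged 1.58 ± 1.72 (SD, n = 6), which exceeded Skamania by 1.99 (SE 0.64, limma adjusted p = 0.436). On the authors' deposited values the difference was 2.29 (limma adjusted p = 0.065), so the call was lost. With slide as a fixed block it was 2.32 (limma adjusted p = 0.0645), and within slides 1, 2 and 3 it was 3.32, 2.25 and 1.44, with adjusted p of 0.33, 0.712 and 0.997. The call was also lost in 9 of 21 fits that left out 1 array, those without Longview replicate 1, 3, 6 or 7 or Skamania replicate 1, 2, 4, 5 or 8. In these 21 fits the difference ranged from 2.11 to 2.58 and the limma adjusted p from 0.00576 to 0.0997.

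Between Columbia City and Skamania no member was called by limma, as for all probes (0%), and the smallest adjusted p of a member was 0.417. An unadjusted p under 0.05 was found for 20 members, or 19.8%, against 9.26% of all probes. The difference, Columbia City minus Skamania, was above 0 for 97 of 101 members, or 96.0%, against 59% of all probes, with a median of 0.52 beside 0.09. Their ranges did not overlap for 0 members, against 0.127% of all probes. The members follow much the same order of fish, so these 97 are not independent. LSS_UF_11822 itself averaged 4.85 ± 5.12 (SD, n = 6) in the Columbia City fish against 0.29 ± 3.26 (SD, n = 8) in those of Skamania. It was higher by 4.56 log2 units (SE 1.96), which did not pass after adjustment over all probes (limma adjusted p = 0.497). No probe tested had a higher difference, and LSS_UF_11822 was picked with all fish in view.

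Between Longview and Columbia City no member was called by limma, as for all probes (0%), and 1 had an unadjusted p under 0.05, against 9.89% of all probes. The median log2 difference, Longview minus Columbia City, was -0.21 beside 0.02, and it was above 0 for 27 members, or 26.7%, against 52.3%. Their ranges did not overlap for 0 members, against 0.317% of all probes. Here too the members had the larger median standard error, 0.435 against 0.339 over all probes. LSS_UF_11822 averaged 2.99 ± 3.48 (SD, n = 7) at Longview. Its difference from Columbia City was -1.86 (SE 2.02, limma adjusted p = 0.817), and from Skamania 2.70 (SE 1.88, limma adjusted p = 0.578). Without Columbia City replicate 1 or 6 the former was -3.24 or -3.10, and without Columbia City replicate 3, 4 or 5 or Longview replicate 2 it was -1.05, -1.22, -1.17 or -0.88. The sites therefore ranked Columbia City, Longview and Skamania by the mean of LSS_UF_11822. No pair of these sites passed for it after adjustment over all probes. By the moderated F test over the 3 sites 0 of 101 members were called, where 1.76% of all probes were. An unadjusted p under 0.05 was found for 9 members, against 13.3% of all probes.

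LSS_UF_10838 did not pass the test between sites either. It averaged 0.20 ± 6.04 (SD, n = 6) in Columbia City fish, 3.99 ± 2.72 (SD, n = 7) in Longview fish and 4.04 ± 5.66 (SD, n = 8) in Skamania fish. Columbia City minus Skamania gave -3.84 on the log2 scale (SE 2.50, limma adjusted p = 0.612), and Longview minus Skamania gave -0.04 (SE 2.39, limma adjusted p = 0.997).

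Several members carried consecutive probe numbers, a feature the rule did not use. There were 6 pairs of members whose numbers differed by 1, and each pair was much alike. LSS_UF_13575 and LSS_UF_13576 correlated by 0.990, LSS_UF_21081 and LSS_UF_21082 by 0.984, and LSS_UF_13900 and LSS_UF_13901 by 0.969. LSS_UF_22504 and LSS_UF_22505 correlated by 0.958, LSS_UF_16178 and LSS_UF_16179 by 0.946, and LSS_UF_13899 and LSS_UF_13900 by 0.864. These exceed the median of 0.731 between any 2 members. The spots of a pair lay between 17 and 150 rows apart on the array, so they were not neighbours in print. These pairs were chosen as members by the same LSS_UF_11822, so their likeness to each other is a description. Over the 161 entries next to a member by number that passed the filter, the median r with LSS_UF_11822 was 0.248, against 0.0357 over all probes. These entries include the members of the 6 pairs, which were chosen on that same r. A probe between 2 members, such as LSS_UF_13900, enters from both sides. The median of 0.248 is therefore partly the rule itself. At distances of 2 to 10, with members likewise left in, the median r varied between 0.0151 and 0.201 with no steady order. It was 0.201 for 2, 0.0366 for 3, 0.144 for 4, 0.0151 for 8 and 0.144 for 10.

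Of these pairs, LSS_UF_13900 and LSS_UF_13901 are named for the same assembled contig, and the others for different sequences. The members named for a numbered assembly group were 88 of 101, and they came from 86 groups. Leaving out 1 group of 103 probes, 8 non-member probes that passed the filter shared a group with a member. Their r with LSS_UF_11822 had a median of 0.436, from -0.401 to 0.722. LSS_UF_11492, in the group of LSS_UF_24526, was at 0.722, and LSS_UF_18521, in the group of LSS_UF_10632, at -0.401. With the member of its own group, LSS_UF_11492 correlated by 0.510 and LSS_UF_18521 by -0.355. The highest such r was 0.822, between LSS_UF_14176 and LSS_UF_14177. Contigs that share an assembly group with a member thus did not always follow it.

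A larger share of the members than of all probes was detected on every array. How far the choice by r itself favours such probes was not tested. Of the 101 members, 85 exceeded background by the scanner's criterion on every array, or 84.2%, against 64.1% of the probes that passed the filter, and the fewest arrays for a member was 8. Every member was well above background on at least 1 array of each site, and no member value was missing. By position, 35 of the 101, or 34.7%, lay in the last of 4 equal bands of array rows, which held 25.5% of all probes, and 19 lay in the second, with 18.8% against 24.3%.

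With site means removed, the r of the mean of the 100 was 0.315 with the log2 75th percentile of the array and 0.370 with the number of probes well above background (n = 21 for each). For LSS_UF_11822 these were 0.162 and 0.268, and for LSS_UF_10838 they were -0.517 and -0.420. Of 60 control probes, 2 had an absolute r over 0.6 with LSS_UF_11822 before scaling. Before scaling means here that unscaled log2 control signals were set against the authors' deposited values of LSS_UF_11822 or the members. ETG09_48764, with log2 signals from 2.14 to 6.19, had an r of 0.645, and 0.660 with both scaled. The spike-in probe E1A_r60_a104, with log2 signals from 3.61 to 5.51, had an r of -0.704 before scaling and -0.478 after it. With the mean of the 100 members the r was 0.726 for ETG09_48764 and -0.713 for E1A_r60_a104, and a further spike-in probe, E1A_r60_a107, was at -0.601. Below the cutoff of 0.6, every DCP control probe had a negative r with the mean of the 100 before scaling, from -0.554 to -0.357. The E1A_r60 probes ran from -0.713 to -0.303, except E1A_r60_3 at 0.515. Some other controls were positive, such as GE_BrightCorner at 0.441. With LSS_UF_11822 itself, the r of the DCP probes ran from -0.524 to -0.299 before scaling and from -0.336 to -0.235 with both scaled. The part of these controls in the pattern of the members was not tested. LSS_UF_11822 ran from -1.96 to 8.30 on slide 1, from -2.90 to 8.19 on slide 2 and from -2.30 to 8.87 on slide 3, so high and low fish were present on every slide.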

How the data were processed

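Spot intensity values on a linear scale came from the scanner output that the authors deposited for 21 arrays, each with 1 Cy3-labelled liver cRNA per the labels' protocols. Agilent Feature Extraction is given as version 9.1 in the submitters' processing notes and 10.1.1.1 in the file headers. The members were chosen on the log2 values that the authors deposited beside it, each column with a median of 6.10. The normalization step behind them is not stated by the labels or headers. All 21 columns correlated best with their own array.

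Log2 processed signals were averaged per probe, leaving out 555 of 319368 spot values with outlier flags, and the 75th percentile of each array was subtracted. Differences between sites were fitted by limma 3.58.1 (R 4.3.3), two-sided, over 11040 probes with 18 residual degrees of freedom, adjusted by the Benjamini-Hochberg method. The code of this fit and of the choice of members was run on simulated data. The planted followers there tracked their probe more closely than the members do, among unrelated noise. That run therefore does not measure how reliable the choice is. The labels name separate fish, with 1 array each, so spread between fish includes that between arrays, and the number of arrays limits the precision.

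Named probes were LSS_UF_11822, LSS_UF_10838, the next 20 by r and the 3 on either side of the 100th place. Also named were the 5 widest and 3 narrowest members, members called between sites and the 5 lowest r. Control probes were on this list if their absolute r with LSS_UF_11822 was over 0.6. The other controls named, and the pairs by probe number or assembly group, were chosen after their values were seen. The members and lists were chosen with earlier results of these data known. Alternatives, whose effect is given in the closing section, covered normalization, background correction, filters, slide, replicate block, weights and fish left out.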

Additional observations from a re-analysis of the deposited data

Results flagged for a closer look

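Dixon's test was run in 69 groups of values. A group is the fish of 1 site for LSS_UF_11822, LSS_UF_10838, a probe of the next 20 by r or the mean of the 100. The test flags about 1 in 20 groups of independent values by chance, a rate that does not apply to probes chosen on these within-site values. The probes also follow each other, so flagged groups are not separate events. In 6 groups a fish stood far from the others of its site. Skamania replicate 6 was that fish in 4 of them. LSS_UF_21518 stood at 1.64 there, against -4.77 to -1.76 in the other Skamania fish. LSS_UF_23217 was at -1.25, against -3.61 to -2.67. LSS_UF_13635 was at 1.69, against 0.10 to 0.73, and LSS_UF_14662 at -1.14, against -3.38 to -2.35. Longview replicate 6 was the fish in the other 2, with LSS_UF_23217 at -0.49, against -3.15 to -2.14 in the other Longview fish, and LSS_UF_14451 at 2.89, against 0.95 to 1.69. All 6 were high values, in the fish with the highest level of LSS_UF_11822 at each of these sites. The choice of probes that rise with LSS_UF_11822 within a site favours this, so it is a description. LSS_UF_11822, LSS_UF_10838 and the mean of the 100 had no such fish at any site.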

How the results depend on the processing

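No member was called by limma between Columbia City and Skamania or between Longview and Columbia City under any alternative run, fits that left out 1 array included. Between Longview and Skamania the count of 1, LSS_UF_14123, went to 0 on the authors' deposited values, with quantile normalization, after normexp, among probes on at least 11 or all 21 arrays, with slide as a fixed block and within slides 1, 2 and 3, and with a replicate block. With array weights the count was 3, which added LSS_UF_13825 and LSS_UF_14021, among 5.03% of all probes. With 1 array left out it was 0 to 1. By the F test the members called rose from 0 to 5 of 101 with array weights, and 4.40% of all probes were called in that fit. The 5 were LSS_UF_14123, LSS_UF_14021, LSS_UF_23217, LSS_UF_10899 and LSS_UF_24526. Of these, LSS_UF_24526 was well above background on only 8 of 21 arrays, 1 of them from Skamania. Its call thus rests largely on values that are only bounds. With 1 array left out the F test called 0 to 1 member, the 1 being LSS_UF_14123 without Columbia City replicate 6. The median difference of the members kept its sign under the alternatives run, except for Longview minus Columbia City without Longview replicate 2. For Longview minus Skamania it fell to 0.20 after normexp and 0.10 within slide 3, and over the alternatives that kept all arrays or 1 slide it ran from 0.10 to 0.55. For Columbia City minus Skamania these gave 0.33 to 1.16, including slide 1, which held only 1 Columbia City fish. For Longview minus Columbia City they gave -0.56 to -0.16, slide 1 included. With 1 array left out it ranged from 0.19 to 0.54 for Longview minus Skamania, from 0.36 to 0.76 for Columbia City minus Skamania and from -0.43 to 0.0001 for Longview minus Columbia City. The difference of LSS_UF_11822 passed under none of them. Those that kept all arrays or 1 slide gave 2.20 to 9.25 for Columbia City minus Skamania and 1.23 to 3.43 for Longview minus Skamania. For Longview minus Columbia City they gave -5.95 to -0.87. The 9.25 and the -5.95 came from slide 1 and rest on its only Columbia City fish, replicate 5. With 1 array left out the differences of LSS_UF_11822 were, in the same order, 3.75 to 5.94, 1.83 to 3.68 and -3.24 to -0.88. The difference of LSS_UF_10838 for Longview minus Skamania, near 0 at first, turned to 0.56 with a replicate block and 0.10 with slide as a fixed block. Within slides 1, 2 and 3 it was -2.40, 1.47 and 1.35, and with 1 array left out it ranged from -1.14 to 0.597. The difference of LSS_UF_14123 for Longview minus Columbia City turned to -0.41 within slide 1, with its 1 Columbia City fish. It ranged from -0.25 to 0.68 with 1 array left out. Of the members, 59 were chosen again with site means kept, and 30, 42 and 55 without the Columbia City, Longview or Skamania fish; with 1 fish left out 59 to 95 were. The r of LSS_UF_11822 with LSS_UF_10838 was -0.613 without the Columbia City fish, and ranged from -0.854 to -0.727 with 1 fish left out. The causes were not tested. Replicate numbers did not pair the fish: deviations of 19 same-numbered pairs correlated by -0.461 to 0.403, and 3 of 21 arrays correlated best with their own number. With the replicate block the LSS_UF_14123 difference was 2.40 (limma adjusted p = 0.108).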
